A study of Mus musculus with 16 samples.

Results

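The RNA-binding proteins Rbfox1, Rbfox2, Rbfox3, Celf2, Celf4, Nova1, Nova2, Mbnl2, Ptbp2 and Elavl3, which set the splicing pattern of neurons, were followed in long-read sequencing of mouse brain. They were chosen by gene symbol and are 10 of the 21627 genes with at least 1 spliced read in the series. RNA came from the left cortex and the left striatum of 3-month-old male R6/2 mice, strain B6CBA-Tg(HDexon1)62Gpb/3J, and non-transgenic (NT) mice of the same age and sex. Each of the 4 combinations of region and genotype has 4 samples, which makes 16. R6/2 mice model Huntington's disease by a transgene for exon 1 of mutant human HTT, driven by the human HTT promoter, while their own Htt genes stay intact. The transgene's transcript was not analysed here. In Iso-seq (Pacific Biosciences), each read follows 1 full-length cDNA from end to end, and the deposited values are the number of reads of every isoform.

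RBFOX proteins bind UGCAUG in introns. They raise inclusion of an exon when they bind downstream of it and lower inclusion when they bind upstream of it. Rbfox1 and Rbfox2 are made in neurons and other tissues, whereas Rbfox3 encodes NeuN, the protein by which neurons are commonly stained. NOVA proteins bind YCAY clusters, CELF and MBNL proteins act in opposition on many exons and also on mRNA in the cytoplasm, Ptbp2 takes over from Ptbp1 as neurons form, and Elavl3 (HuC) is a neuronal member of the Hu family that binds U-rich RNA. Several of these genes also splice their own transcripts and those of one another, so that their isoforms differ in activity or location in the cell.

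Whether short alternative exons carry the isoform differences described further on was not tested. Such exons of Ptbp2, Mbnl2, Rbfox1 and Rbfox2, as placed in the annotation, are shown here. All are within coding sequence of GENCODE M21 transcripts on mm10. Exon 10 of 14 of Ptbp2 (ENSMUST00000200097, minus strand, chr3:119724612-119724645) has 34 nt, so leaving it out shifts the reading frame, and this is the exon through which Ptbp1 is known to keep Ptbp2 low outside neurons.
Ptbp2 exon 10: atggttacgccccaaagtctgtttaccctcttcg
Exon 6 of 9 of Mbnl2 (ENSMUST00000088419, plus strand, chr14:120395712-120395765) has 54 nt and keeps the frame, and the corresponding exon of MBNL proteins is known to favour a place in the nucleus.
Mbnl2 exon 6: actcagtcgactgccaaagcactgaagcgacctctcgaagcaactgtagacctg
Rbfox1 and Rbfox2 hold a 40-nt exon each, on the plus strand at chr16:7363865-7363904 (exon 12 of 15, ENSMUST00000056416) and on the minus strand at chr15:77094451-77094490 (exon 10 of 13, ENSMUST00000166610). Capitals mark the bases at which these paralogous exons differ.
Rbfox1 exon 12: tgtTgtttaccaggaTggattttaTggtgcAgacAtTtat
Rbfox2 exon 10: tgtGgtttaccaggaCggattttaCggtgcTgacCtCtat
They shared 34 of 40 bases (85%).

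Reads per sample numbered 252885 to 808814 in the cortex and 317050 to 1496196 in the striatum. For 4 striatal samples (numbers 1 and 2 of the NT mice, numbers 2 and 3 of the R6/2 mice) there were 2 sets of counts, read here as 2 sequencing runs and summed. These samples differed in more than depth, with mean isoform lengths per read of 2141 to 2225 nt against 1618 to 1885 nt in the other 4 striatal samples. Each number of sets held 2 NT and 2 R6/2 samples. Marker genes differed between the labelled tissues. Specifically, 9 markers of striatal projection neurons summed to between 10529 and 14444 CPM (reads scaled to a common library size) in NT striatum and to between 391 and 488 in NT cortex, whereas 6 markers of cortical excitatory neurons summed to between 127 and 175 in NT cortex and to at most 44.7 in NT striatum. Markers of the choroid plexus summed to 9585 CPM in Striatum NT 3 alone of the 8 striatal samples, against 55.2 at the lowest in NT striatum and at most 320 in R6/2 striatum. Cortical samples also differed in these markers, from 6.74 to 971 CPM in NT mice and from 21.01 to 1614 in R6/2 mice.

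TALON sorts the reads of a gene by how they match the annotation. Known isoforms match an annotated transcript in full, incomplete splice matches (ISM) match a part of one, NIC isoforms use annotated sites only but in an unlisted combination, and an NNC isoform includes a site that the annotation lacks. The genomic class holds reads that lie in a gene on its strand but share none of its splice junctions, such as reads from within introns. Reads of the first 4 classes are called spliced reads here and served as the gene's level, and known, NIC and NNC reads together are called complete reads. The name is a shorthand, since ISM isoforms can have 1 exon and so no splice junction.

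The 10 genes held 17719 reads in 2014 listed entries, a number that includes entries of the genomic class as well as isoforms. Of these reads, 11696 were spliced and 6023 (34.0%) were genomic. Over all genes, 7.81% of reads were genomic, and the median was 6.69% over the 9653 genes with at least 100 reads in the 2 classes together. Nova2 stood at the far end, with 92 genomic and 2 spliced reads (97.9% genomic). Celf2 followed with 83.5% genomic reads (2702 of 3236), which placed it at the 97.6th percentile of those genes. Rbfox1 had 56.0% (1241 of 2216), Rbfox2 51.3%, Nova1 50% and Elavl3 39.5%. In Rbfox3 the share was 23.2%, in Celf4 10.3%, in Mbnl2 8.86% and in Ptbp2 6.85%, close to that of the median gene. Rbfox1 and Celf2 span 1526.2 and 969.9 kb and are the longest genes of the set, but Nova2 spans only 39.4 kb and Ptbp2 65.7 kb, so the order of the shares did not follow the order of the spans throughout.

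**Figure D1:**
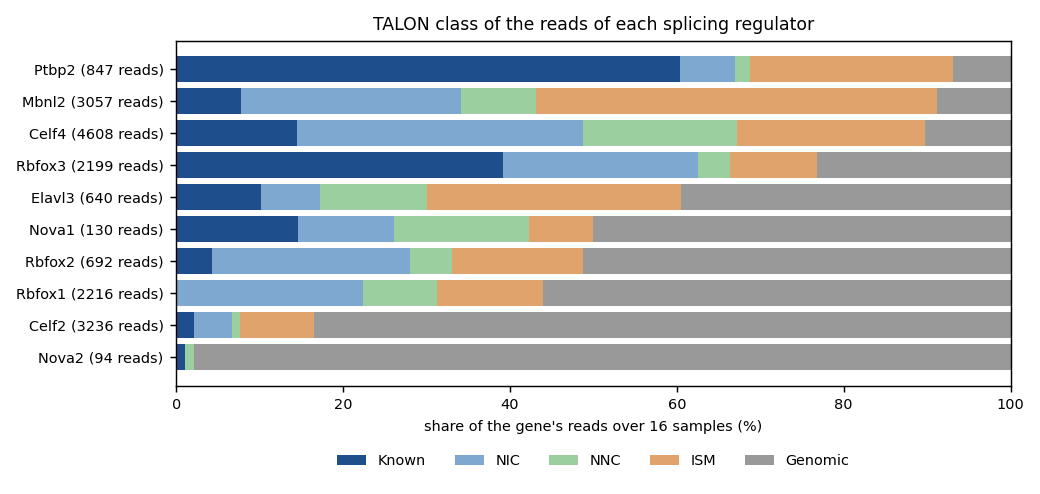
Share of the reads of each of the 10 genes (%, horizontal axis) in the TALON classes known, NIC, NNC, ISM and genomic, over all 16 samples, with the number of reads of each gene beside its name. Genomic reads make up 97.9% of Nova2 and 83.5% of Celf2 reads and 6.85% of Ptbp2 reads, and Rbfox1 has no known reads.

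The spliced reads were divided among the classes in a way that differed from gene to gene. Known transcripts took 87.7% of the complete reads of Ptbp2 (511 of 583) and 59.1% of those of Rbfox3 (862 of 1459), but 21.5% of those of Celf4, 18.1% of those of Mbnl2, 13.1% of those of Rbfox2 and none of the 693 of Rbfox1. The complete reads of Rbfox1 were 495 NIC and 198 NNC reads. Celf4, which had the most spliced reads (4133), also had 247 NIC isoforms. ISM reads were 53.6% of the spliced reads of Celf2, 52.7% of those of Mbnl2 and 50.4% of those of Elavl3, and 13.6% of those of Rbfox3.

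In Iso-seq a read follows 1 cDNA whatever its length. The cDNA was amplified before sequencing, so several reads can come from 1 RNA molecule. Neither amplification nor a possible loss of long molecules was corrected. Levels are given as CPM of spliced reads without division by length. By this measure Celf4 was the most abundant member in each group, at 466 CPM in NT cortex and 405 CPM in NT striatum. Mbnl2 and Rbfox3 followed at 203 and 212 CPM in NT cortex and at 368 and 215 CPM in NT striatum. Rbfox1, Ptbp2, Elavl3, Celf2 and Rbfox2 lay between 28.6 and 173 CPM in NT mice. Nova1 had 65 spliced reads over the 16 samples, with group means of 2.90 ± 2.35 CPM in NT cortex, 2.26 ± 1.79 in R6/2 cortex, 9.22 ± 5.73 in NT striatum and 9.52 ± 3.57 in R6/2 striatum (SD, n = 4). Nova2 had 1 read in R6/2 cortex and 1 in R6/2 striatum. These 2 genes did not pass the filter on low counts in any comparison, so 8 of the 10 members were tested.

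**Figure D2:**
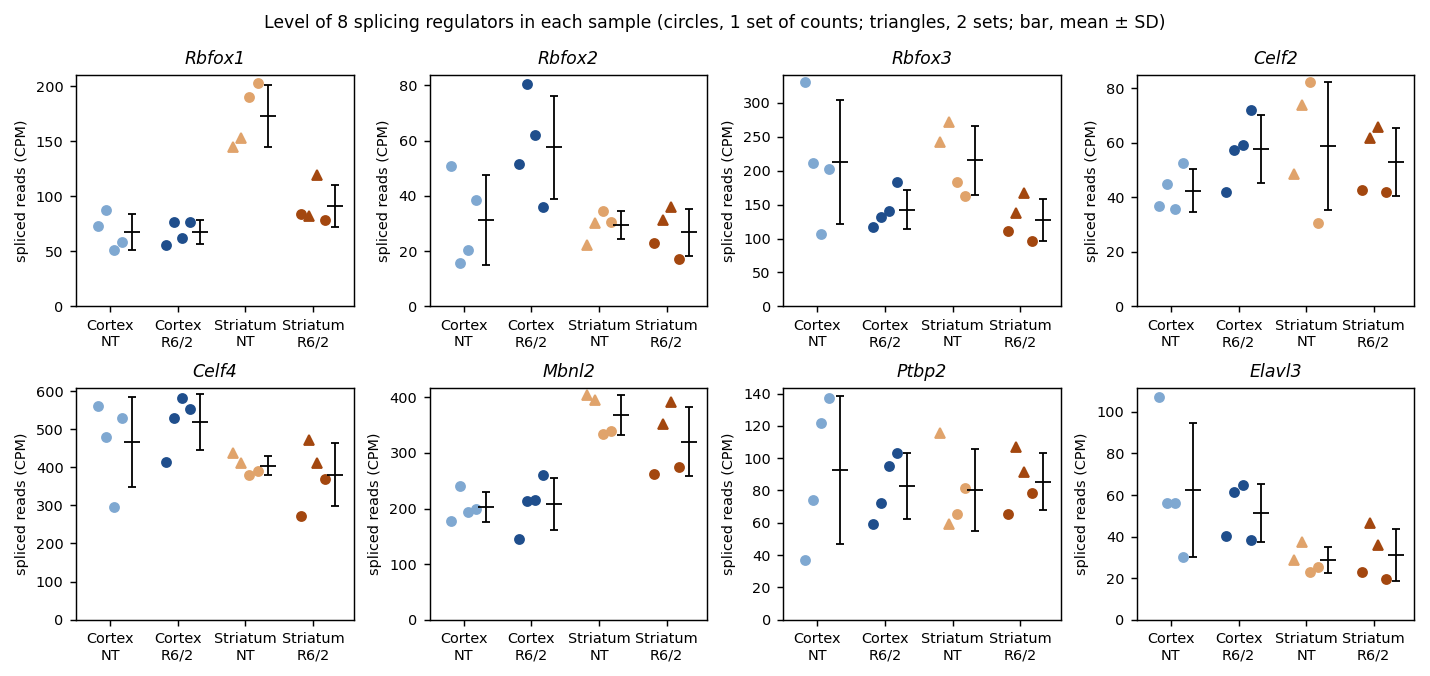
Level of the 8 tested genes in each sample (CPM of spliced reads, vertical axes from 0), by region and genotype, with circles for samples with 1 set of counts, triangles for samples with 2 sets, and the mean ± SD of the 4 samples beside them. Rbfox1 lies between 145 and 203 CPM in NT striatum and between 78.6 and 120 CPM in R6/2 striatum, with no overlap.

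In the striatum, 2 of the 8 genes were lower in R6/2 than in NT mice, both from the RBFOX family, and none was higher. Over all genes tested there, 4.34% were called (332 of 7658, 294 of them lower). Rbfox1 stood at 145, 153, 190 and 203 CPM in the striata of NT mice 1 to 4 and at 83.6, 82.1, 120 and 78.6 CPM in those of R6/2 mice 1 to 4. All 4 R6/2 samples lay below all 4 NT samples. The means were 173 ± 28.4 and 91.0 ± 19.3 CPM (SD, n = 4), and the log2 fold change was -0.89 (SE 0.19, adjusted p = 0.0168, edgeR quasi-likelihood test). Rbfox3 stood at 242, 272, 184 and 163 CPM in NT striatum and at 111, 137, 166 and 95.8 CPM in R6/2 striatum. The third R6/2 sample lay just above the lowest NT sample, and the other 3 lay below all NT samples. Its means were 215 ± 50.8 and 128 ± 31.0 CPM (SD, n = 4), with a log2 fold change of -0.77 (SE 0.15, adjusted p = 0.0101).

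The striatal samples with 1 and with 2 sets of counts each showed the lower level. For Rbfox1, the log2 ratio of the R6/2 mean to the NT mean was -1.28 among samples with 1 set (81.1 against 197 CPM) and -0.56 among samples with 2 sets (101 against 149 CPM). For Rbfox3, these ratios were -0.74 and -0.76. Without a term for the number of sets in the fit, neither gene was called (adjusted p = 0.133 for Rbfox1 and 0.209 for Rbfox3), although the log2 fold changes were -0.94 and -0.77. The calls also depended on ISM reads and on single samples. With ISM isoforms left out, Rbfox1 was not called (log2 fold change -0.79, adjusted p = 0.0629). Rbfox1 had an adjusted p of 0.0561 without Striatum NT 3, the sample with the high choroid plexus markers, 0.0715 without R6/2 1, 0.0764 without R6/2 2 and 0.0741 without R6/2 4. Rbfox3 was still called without Striatum NT 3 (adjusted p = 0.0489) and was not called without R6/2 2 (0.088) or R6/2 4 (0.0525).

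The other 6 genes did not pass the test in the striatum. Mbnl2 had 368 ± 35.8 CPM in NT and 320 ± 61.6 CPM in R6/2 mice (log2 fold change -0.22, 95% interval -0.50 to 0.058). Celf4 had 405 ± 24.4 and 381 ± 83.5 CPM (interval -0.43 to 0.20) and Celf2 58.7 ± 23.6 and 52.9 ± 12.5 CPM (interval -0.74 to 0.27). Ptbp2 had 80.5 ± 25.3 and 85.5 ± 17.8 CPM (interval -0.32 to 0.55) and Elavl3 28.6 ± 6.26 and 31.2 ± 12.4 CPM (interval -0.32 to 0.60). Rbfox2, the third member of the RBFOX family, had 29.3 ± 5.07 and 26.8 ± 8.45 CPM (log2 fold change -0.056, adjusted p = 0.999). In spliced reads, changes of the size seen in Rbfox1 thus lay outside the approximate intervals of Mbnl2, Celf4, Celf2, Ptbp2 and Elavl3. For Celf2 this covers only 534 of its 3236 reads over all samples. With genomic reads added, its striatal log2 fold change was -0.88 (adjusted p = 0.0142, edgeR).

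Cell type markers were measured in the same striatal samples. None of 6 general neuronal markers was called (median log2 fold change -0.14), and they summed to between 3281 and 6450 CPM in NT and between 3029 and 4165 CPM in R6/2 mice. Of 9 markers of striatal projection neurons, 7 were lower in R6/2 mice (median log2 fold change -2.16), and they summed to between 1973 and 3412 CPM in R6/2 mice, against 10529 or more in NT mice. In addition, 1 of 6 oligodendrocyte and 1 of 6 astrocyte markers were lower, and the astrocyte markers summed to between 1971 and 3903 CPM in NT and between 1317 and 1845 CPM in R6/2 mice, without overlap, while no microglial or endothelial marker was called. Of the markers of cortical excitatory neurons and of the choroid plexus, 1 each was at 0 in all R6/2 striata. Fewer cells of a type and less RNA per cell cannot be told apart in such tissue samples, and the part of these cell types in the lower Rbfox1 and Rbfox3 levels was not tested.

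In the cortex, none of the 8 genes was called by edgeR or by DESeq2, with 3.27% of all tested genes called (200 of 6121). At an unadjusted p under 0.05 there were 2, again from the RBFOX family and in opposite directions. Rbfox3 stood at 330, 211, 107 and 202 CPM in the cortices of NT mice 1 to 4 and at 117, 132, 140 and 183 CPM in those of R6/2 mice 1 to 4 (log2 fold change -0.60, SE 0.24, adjusted p = 0.205). NT 3, with the fewest reads, was the lowest of all 8 samples. Without it Rbfox3 was called (adjusted p = 0.0378). Rbfox2 stood at 50.8, 15.7, 20.3 and 38.3 CPM in NT mice and at 51.6, 80.6, 62.1 and 36.1 CPM in R6/2 mice, with overlapping ranges (log2 fold change 0.86, SE 0.33, adjusted p = 0.174). Rbfox1 had near-equal means in the cortex, 67.6 ± 16.3 CPM in NT and 67.7 ± 10.7 CPM in R6/2 mice, with an interval of the log2 fold change from -0.48 to 0.41. The remaining members, Celf2, Celf4, Mbnl2, Ptbp2 and Elavl3, had log2 fold changes between -0.21 and 0.39. In the cortical samples, 1 of 6 astrocyte markers and 2 of the 3 tested markers of striatal projection neurons were lower, the astrocyte markers summed to between 2293 and 3613 CPM in NT and between 1343 and 1834 CPM in R6/2 mice, without overlap, and none of 6 neuronal markers was called (median log2 fold change -0.0046). 

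Whether the R6/2 effect itself differed between the regions was tested as an interaction over all 16 samples. None of the 8 genes was called by edgeR or DESeq2, and 0.0406% of genes were (3 of 7390). At an unadjusted p under 0.05 there was only Rbfox1, whose striatal effect was lower than its cortical effect by a log2 difference of -0.83 (SE 0.29, adjusted p = 0.789, edgeR's quasi-likelihood test). For Rbfox3, the difference was -0.15 (interval -0.75 to 0.46).

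**Figure D3:**
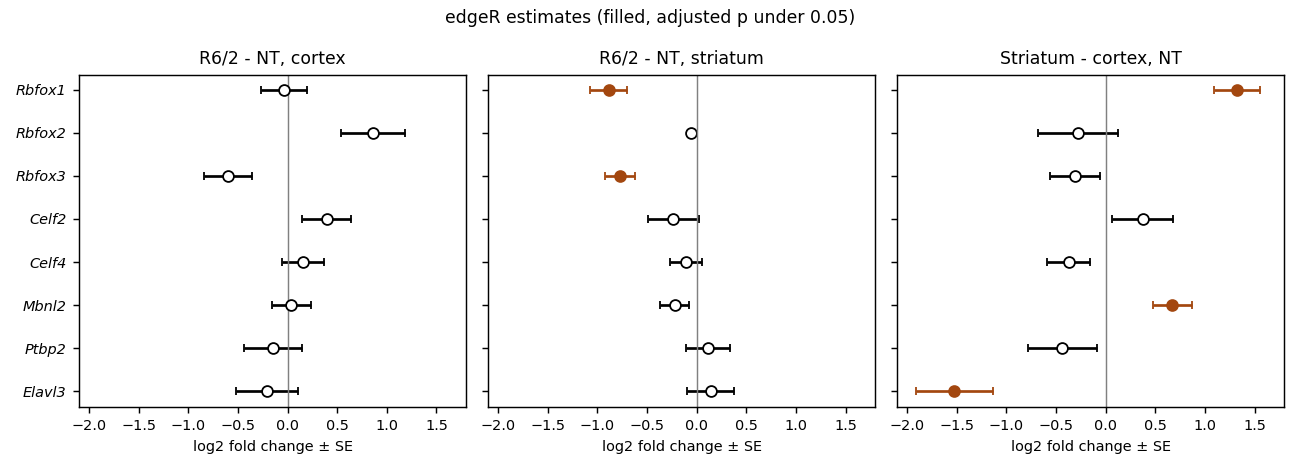
Log2 fold changes ± SE (horizontal axis) of the 8 tested genes for R6/2 minus NT in the cortex, R6/2 minus NT in the striatum, and striatum minus cortex in NT mice, with filled symbols where the adjusted p was under 0.05. No SE is drawn for Rbfox2 in the striatum. Rbfox1 and Rbfox3 are filled in the striatum at -0.89 and -0.77, and Rbfox1, Mbnl2 and Elavl3 between the regions at 1.32, 0.67 and -1.52.

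Between the regions of NT mice, 3 of the 8 genes differed, 2 higher and 1 lower in the striatum, a share near that of all genes tested (33.4%, 2467 of 7390). The median of all genes in this fit was -0.11 on the log2 scale. All cortical samples had 1 set of counts, so the term for sets was estimated from striatal samples only. The log2 fold changes between regions therefore compare them as at 1 set and can differ from the ratio of the printed CPM. Rbfox1 was higher in the striatum, at 145 to 203 CPM against 50.8 to 87.6 CPM in the cortex (log2 fold change 1.32, SE 0.23, adjusted p = 0.000119). Its groups did not overlap. Mbnl2, whose protein helps to set the adult splicing pattern of the brain, stood at 404, 395, 335 and 340 CPM in NT striatum and at 178, 240, 193 and 200 CPM in NT cortex, again without overlap (log2 fold change 0.67, SE 0.20, adjusted p = 0.0111). Elavl3 was lower in the striatum, at 28.9, 37.3, 23.0 and 25.4 CPM against 107, 56.2, 55.9 and 30.3 CPM in the cortex, with the last cortical sample inside the striatal range (log2 fold change -1.52, SE 0.38, adjusted p = 0.00369). It was not called without Cortex NT 1 (log2 fold change -0.89, adjusted p = 0.0571) or without a term for the number of sets (-1.05, adjusted p = 0.0582). Celf4, Celf2, Rbfox2, Rbfox3 and Ptbp2 did not pass the test, with log2 fold changes between -0.44 and 0.37, but Celf4 was called without Cortex NT 3 (log2 fold change -0.53, adjusted p = 0.0429) and Celf2 with genomic reads added (0.83, adjusted p = 0.00336). The sources used here do not say whether the cortex and striatum of 1 number came from 1 mouse, and the comparison treats them as separate.

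Ordered by group means, Rbfox1 was highest in NT striatum, then in R6/2 striatum, then in the cortex of both genotypes, and only the 2 cortical groups overlapped among neighbours in that order. Mbnl2 was highest in NT striatum, R6/2 striatum, R6/2 cortex and NT cortex, with a gap between striatum and cortex only. Among the neighbouring groups of the other members, ranges overlapped throughout. Celf4 went from 519 CPM in R6/2 cortex to 381 in R6/2 striatum, and Elavl3 from 62.4 CPM in NT cortex to 28.6 in NT striatum.

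Within a gene, the isoform with the most complete reads was followed across the groups, as a description. For Rbfox3 it was ENSMUST00000106278 (15 exons, 1542 nt, 824 reads), with 55.9 ± 6.55% in NT cortex, 55.7 ± 8.94% in R6/2 cortex, 56.9 ± 5.10% in NT striatum and 53.5 ± 4.31% in R6/2 striatum (SD, n = 4). Ptbp2 was led by ENSMUST00000200097 (14 exons, 270 reads), whose group means lay between 41.2% and 48.5%. Mbnl2 was led by the NIC isoform TALONT000576324 (8 exons, 2385 nt, 400 reads), with group means between 25.9% and 37.1%. Celf4 was led by ENSMUST00000025117 (13 exons, 3935 nt, 566 reads), at 16.1% to 20.97%. The leading isoforms of Elavl3, Nova1, Rbfox2, Rbfox1 and Celf2 held 39.1%, 34.5%, 19.2%, 12.8% and 12.5% of complete reads over all samples, so no single transcript stood for the last 3 of these genes. For Rbfox2 (44 reads), the group means of the leading isoform ranged from 3.57% in NT cortex to 39.3% in R6/2 striatum. The latter had an SD of 40.5%, with 100% in Striatum R6/2 4, which held 2 complete Rbfox2 reads. For Rbfox1 (89 reads), the means ranged from 6.21% in R6/2 striatum to 18.7% in NT striatum. For Celf2 (31 reads), they ranged from 6.78% in NT striatum to 18.2% in R6/2 striatum. For Nova1 (19 reads), they ranged from 0% in NT cortex to 55% in NT striatum. The cortices of NT mice 1 to 4 held 0, 2, 0 and 1 complete Nova1 reads.

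Isoform usage, the division of a gene's complete reads among its isoforms, was tested for all genes with at least 2 isoforms of 10 or more reads. No member was called by edgeR's gene-level Simes test in the cortex (0.360% of all genes, 11 of 3058), the striatum (0.451%, 20 of 4437) or between the regions (0.372%, 21 of 5641). At an unadjusted p under 0.05 there were 0, 4 and 2 members. The 4 in the striatum were Rbfox1 (adjusted p = 0.0943, edgeR), Rbfox3 (0.128), Mbnl2 (0.341) and Celf2 (0.411). edgeR's gene-level F test, which pools differences over all isoforms of a gene, called 3 of them between R6/2 and NT striatum, Rbfox1 (adjusted p = 0.00259), Rbfox3 (0.0303) and Mbnl2 (0.0498), where it called 1.67% of genes (74 of 4437). Between the regions of NT mice it called Rbfox1 alone of the 8 (adjusted p = 0.000304), where it called 0.922% of genes (52 of 5641), and in the cortex it called none. With 1 setting thus calling 3 members in the striatum and the other none, the isoforms behind these values are described without a test, and were chosen after their values were seen.

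Much of the Rbfox1 mRNA fell into 4 pairs of isoforms, each of a 14-exon and a 13-exon form that differed by 53 nt. Their lengths were 1518 and 1465 nt (151 reads), 2001 and 1948 nt (129 reads), 1585 and 1532 nt (114 reads), and 2160 and 2107 nt (29 reads). The first and the third pair differed from each other by 67 nt in both forms. No annotated internal exon of Rbfox1 has 53 nt in GENCODE M21, so the 53 nt could not be placed. The TALON classes rest on an Ensembl annotation, so an exon listed there but not in GENCODE M21 would be missed. The forms were matched by number of exons and length only. In the first and the third pair, the longer form is NIC and the shorter NNC. That the forms differ by 1 skipped exon was thus not established.

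The 1585 and 1532 nt pair made up 1.35%, 9.09%, 3.66% and 0% of complete Rbfox1 reads in the striata of NT mice 1 to 4 and 11.1%, 25.4%, 29.2% and 18.2% in those of R6/2 mice 1 to 4. Every R6/2 sample was above every NT sample. The means were 3.53 ± 4.01% and 20.98 ± 8.01% (SD, n = 4), from 16 of 312 and 50 of 210 reads. In the cortex the share was 29.2 ± 4.203% in NT and 28.6 ± 11.3% in R6/2 mice, from 20 of 71 and 28 of 100 reads. The 1518 and 1465 nt pair went the other way in the striatum, from 18.9%, 19.7%, 46.3% and 37.5% in NT mice to 13.9%, 7.94%, 12.4% and 18.2% in R6/2 mice. Those groups also did not overlap. Its level was 32.3 ± 18.7 CPM in NT and 8.42 ± 2.60 CPM in R6/2 striatum, whereas the 1585 and 1532 nt pair stood at 3.66 ± 3.98 and 14.9 ± 9.42 CPM. In these reads the 1585 and 1532 nt pair did not share the lower Rbfox1 level of R6/2 striatum. The pair was chosen after its values were seen, and Rbfox1 usage passed the F test but not the Simes test above. The 2001 and 1948 nt pair held 18.7 ± 6.69% and 13.7 ± 6.74% of striatal complete reads, with overlapping groups.

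No difference in the share of the longer forms was detected between genotypes. Among reads of the 4 pairs, the longer form took 55.4 ± 6.07% in NT and 52.7 ± 2.27% in R6/2 striatum (exact permutation test, two-sided, p = 0.6, n = 4 and 4), and 49.6 ± 11.2% in NT and 60.0 ± 24.8% in R6/2 cortex (p = 0.514, exact permutation test). With 5 to 76 such reads per sample, smaller differences than these spreads were not detectable.

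**Figure D4:**
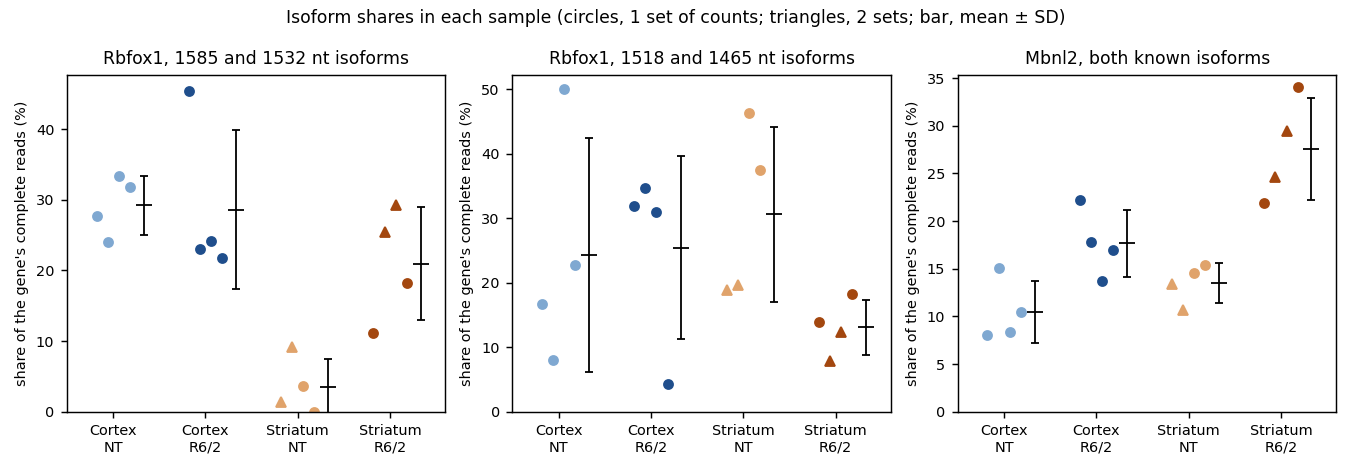
Share of complete reads (%, vertical axes from 0) of the 1585 and 1532 nt pair of Rbfox1, the 1518 and 1465 nt pair of Rbfox1, and both known isoforms of Mbnl2 in each sample, by region and genotype, with circles for 1 set of counts, triangles for 2 sets and the mean ± SD of 4 samples. In the striatum the R6/2 samples lie above the NT samples for the 1585 and 1532 nt pair and for Mbnl2 and below them for the 1518 and 1465 nt pair.

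Mbnl2 has 2 known isoforms with reads, ENSMUST00000088419 (9 exons, 4552 nt, 84 reads) and ENSMUST00000167459 (8 exons, 4498 nt, 155 reads), and the 54-nt exon 6 shown above is the length by which they differ. Together they took 13.4%, 10.6%, 14.6% and 15.4% of complete Mbnl2 reads in NT striatum and 22.0%, 24.7%, 29.5% and 34.0% in R6/2 striatum. The remainder were NIC and NNC reads, and the groups did not overlap. The means were 13.5 ± 2.08% and 27.5 ± 5.34%. The exact permutation test on the NIC and NNC share gave p = 0.0286, the smallest that 4 samples against 4 allow, and 0.982 after adjustment over 55 such tests. A single test at that smallest p cannot pass this adjustment, so the adjusted value does not decide. The difference was 13.0 percentage points among samples with 1 set of counts and 15.1 among those with 2 sets (exact permutation test within numbers of sets, p = 0.0556, again the smallest possible). In the cortex the known isoforms took 10.5 ± 3.27% in NT and 17.7 ± 3.51% in R6/2 mice (p = 0.0571 and adjusted p = 0.982, exact permutation test).

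The longer of the 2 known Mbnl2 transcripts, with the 54-nt exon, had 8 of 16 reads in NT cortex, 21 of 34 in R6/2 cortex, 15 of 64 in NT striatum (23.4%) and 40 of 125 in R6/2 striatum (32%). Single samples held as few as 1 read of the pair, so these sums over samples were not tested. A pair of Rbfox2 isoforms of 13 and 12 exons, 3214 and 3174 nt, differed by 40 nt, the length of its exon 10 shown above. The longer form had 2 of 4 reads in NT cortex, 20 of 27 in R6/2 cortex, 9 of 15 in NT striatum and 13 of 15 in R6/2 striatum, which was too few per sample for a test.

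In Rbfox3, the known isoform ENSMUST00000120061 (15 exons, 2150 nt) had 3 reads in NT and 16 in R6/2 striatum, or 0.319 ± 0.369% and 3.54 ± 2.61% of complete reads. In Celf2, the NIC isoform TALONT000144888 (9 exons, 1792 nt) had 16 reads in NT and 1 in R6/2 striatum, with shares from 0% to 34.8% among NT samples. The Celf2 isoform had a mean share of 17.3% in NT striatum, above that of the gene's leading isoform there, and the Rbfox3 isoform was a small part of its gene.

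Cassette exons were taken as annotated exons whose 2 neighbours are joined directly in another known isoform, and could be read in 3 members. The 54-nt exon of Mbnl2 was not among the exons found by this rule. The 34-nt exon 10 of Ptbp2 was included in 479 such reads (99.4%, Wilson 95% interval 98.2% to 99.8%, counting error only), and skipped in 3, which came from NT striatum. A 144-nt coding exon of Celf2 (chr2:6549832-6549975) was included in 46 reads and skipped in 1. A 40-nt exon of Rbfox3 outside its coding sequence (chr11:118610159-118610198) was included in 856 reads and skipped in 6. None had 10 reads of each form, the minimum for a test. Among known isoforms of these 3 genes, nearly all reads thus held the exon in both genotypes and regions.

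The make-up of the members' reads was also compared between genotypes, as the shares of ISM, of NIC and NNC and of genomic reads and the mean isoform length, in 55 exact permutation tests. Only the NIC and NNC share of Mbnl2 in the striatum had an unadjusted p under 0.05, and none passed after adjustment (smallest adjusted p = 0.982, exact permutation test). The smallest p possible is 0.0286, and a few tests at that value could not pass adjustment over 55. The adjusted values therefore cannot decide about single shares. The genomic share of Rbfox1, for example, was 62.2 ± 7.91% in NT and 57.7 ± 6.19% in R6/2 cortex and 56.0 ± 8.24% and 53.4 ± 11.6% in the striatum. Directions were often shared. Mean isoform length was higher in R6/2 mice in 8 of 8 members in the striatum and 5 of 7 in the cortex. The ISM share was lower in 7 of 8 and 6 of 7. The members come from the same samples, so these directions are not independent, and their bearing on the Mbnl2 share was not tested.

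Within the striatum, a short transcript of Celf4 went with the number of sets of counts. With ISM isoforms added to the usage test, Celf4 differed between the regions of NT mice (adjusted p = 3.05e-08, edgeR). A 1-exon ISM isoform of 394 nt had 96 of its 106 reads in the 4 striatal samples with 1 set of counts (28 in NT 3, 19 in NT 4, 19 in R6/2 1 and 30 in R6/2 4). The striatal samples with 2 sets held 3 of its reads, and the 8 cortical samples, all with 1 set, held 7. Another 1-exon ISM isoform of Celf4, of 1069 nt, had 126 of its 167 reads in the cortex. Both isoforms count among the spliced reads that give the level of Celf4. In the striatum these numbered 232 in NT 3, 77 in NT 4, 180 in R6/2 1 and 150 in R6/2 4.

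The genomic reads of the members were then compared on their own, a comparison added after the data were seen, with levels scaled to the genomic reads of a sample in the same way as CPM. Of the 7 members that passed the filter, 3 were called between R6/2 and NT striatum, against 8.10% of genes (97 of 1198). Celf2 stood at 6352, 8170, 7465 and 6384 in NT mice 1 to 4 and at 3178, 4518, 4628 and 4566 in R6/2 mice 1 to 4 (log2 fold change -0.68, SE 0.20, adjusted p = 0.0414). Rbfox1 stood at 2771, 4632, 4321 and 2802 in NT mice and at 1791, 2273, 2441 and 2174 in R6/2 mice (log2 fold change -0.68, SE 0.21, adjusted p = 0.0437). In neither gene did the groups overlap. Rbfox1 was thus lower in R6/2 striatum in spliced and in genomic reads, and Celf2 in genomic reads. When genomic reads were added to the spliced reads, Celf2 was called as well (log2 fold change -0.88, adjusted p = 0.0142).

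Elavl3 genomic reads were higher in R6/2 striatum (log2 fold change 0.84, SE 0.26, adjusted p = 0.0487), but the groups overlapped, at 218, 219, 620 and 827 in NT mice and 1040, 505, 380 and 1118 in R6/2 mice. The samples with 2 sets of counts were the lower ones in both genotypes. In the log2 ratios within 1 and 2 sets, Celf2 had -0.84 and -0.67, Rbfox1 -0.84 and -0.65, and Elavl3 0.58 and 1.02. All 3 calls were lost without the term for the number of sets (adjusted p from 0.233 to 0.544) and when Striatum NT 3 or any single R6/2 sample was left out.

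In the cortex, no member was called in genomic reads by edgeR, with 2.27% of genes called (19 of 837) and 1 member, Rbfox3, at an unadjusted p under 0.05 (log2 fold change -0.70, adjusted p = 0.100). DESeq2 also called none. Without Cortex NT 3, Rbfox3 was called. Between the regions of NT mice, 3 of 7 members were called, near the share of all genes (31.8%, 476 of 1496). Rbfox1 was higher in the striatum (log2 fold change 0.92, SE 0.23, adjusted p = 0.00172), as in its spliced reads. Celf4 was lower, at 623 to 775 in the striatum and 991 to 1581 in the cortex (log2 fold change -1.01, SE 0.28, adjusted p = 0.00503). Elavl3 was higher (1.01, SE 0.34, adjusted p = 0.0203, and 0.0105 to 0.560 over its alternatives, edgeR), the opposite in sign of its spliced reads. Its groups overlapped, at 218, 219, 620 and 827 in the striata of NT mice 1 to 4 and 324, 361, 152 and 386 in the cortices. Striatum NT 1 and 2, with 2 sets of counts, lay within the cortical range, and NT 3 and 4, with 1 set, lay above it. With both kinds of reads summed, the log2 difference of Elavl3 between the regions was -0.013.

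**Figure D5:**
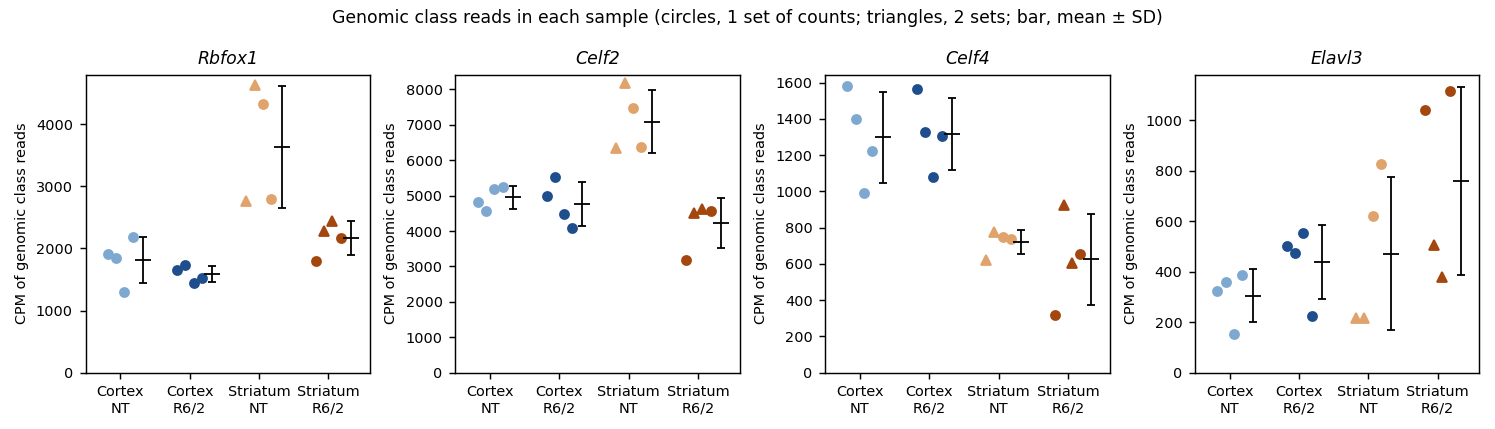
Genomic reads of Rbfox1, Celf2, Celf4 and Elavl3 in each sample (CPM of genomic reads, vertical axes from 0), by region and genotype, with circles for 1 set of counts, triangles for 2 sets and the mean ± SD of 4 samples. Rbfox1 and Celf2 are lower in all R6/2 than in all NT striata, with means of 2170 against 3631 and 4222 against 7093.

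Of 17 other splicing regulators, chosen as relatives of the members or as known neuronal regulators, 8 could be tested in the cortex, 9 in the striatum and 10 between the regions. None was called between genotypes by edgeR in either region, and at an unadjusted p under 0.05 there were 0 in the cortex and 2 in the striatum. One was Ptbp1, the non-neuronal counterpart of Ptbp2, at 8.92 to 20.3 CPM in NT and 19.7 to 32.4 CPM in R6/2 striatum (log2 fold change 1.14, SE 0.32, adjusted p = 0.063). The other was Qk, which acts in glia, at 11.8 to 25.4 and 4.32 to 22.1 CPM (log2 fold change -1.32, adjusted p = 0.114). Between the regions of NT mice, Mbnl1 (log2 fold change 1.05, adjusted p = 0.0295) and Elavl1 (1.17, 0.0424) were higher in the striatum, and Khdrbs3 (-2.12, 0.000223), Elavl4 (-1.69, 0.00336) and Khdrbs1 (-0.81, 0.0352) were lower. These were 5 of 10 genes, where 33.4% of all genes were called. Elavl2, like Elavl3 and Elavl4 a neuronal Hu gene, had -1.51 and did not pass (adjusted p = 0.0757). The Simes test of isoform usage called none of the list in the 3 comparisons, with 0 at an unadjusted p under 0.05 in each.

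A further list held 15 genes with exons known to be spliced by members. In expression, none was called between genotypes in either region, with 2 in the cortex and 4 in the striatum at an unadjusted p under 0.05 in edgeR's test. Mapt, Dab1 and Camk2d were lower in NT striatum than in NT cortex (log2 fold changes -0.96, -1.18 and -1.20, adjusted p = 0.00166, 0.00128 and 0.00731, edgeR). In that comparison, 33.4% of all genes were called (2467 of 7390). In isoform usage, 1 of 9 was called in the cortex between R6/2 and NT mice, Ndrg4 (adjusted p = 0.0042, edgeR). There 0.360% of all genes were called (11 of 3058). None of 9 was called in the striatum, where no target had an unadjusted p under 0.05, or between the regions. The median log2 fold change of the list's tested genes was -0.038 in the cortex and -0.12 in the striatum, against 0.0022 and -0.17 for the members and 0.015 and -0.0022 for all genes.

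For the 3 members with the most reads, the genes with the most similar pattern over the 16 samples were sought by Pearson correlation of log2 CPM among 7390 genes, as a description. For Celf4 these were Smarcc2 (r = 0.90), Rora (0.86) and Cpne6 (0.86). For Mbnl2 they were St8sia3 (0.95), Paqr4 (0.94) and Rxrg (0.93), and for Rbfox3 they were Fdft1 (0.93), Clu (0.89) and Dlgap2 (0.89). The points share region, genotype, depth and number of sets of counts.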

How the data were processed

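TRIzol RNA was treated with a 5′-phosphate-dependent exonuclease, converted to cDNA, amplified and read on a PacBio Sequel II. From consensus reads, the authors retained full-length molecules ending in poly(A), aligned these with minimap2 (2.17-r941; mm10), cleaned the alignments with TranscriptClean and ran TALON to name an isoform for each. The deposited values are counts of reads per isoform and sample, not normalized and not filtered by TALON, and were used here as counts. They have no molecular identifiers, so intervals of shares of reads cover counting error only. Groups came from the sample labels, and age, sex and strain from the study's methods.

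The known, ISM, NIC and NNC reads of a gene were summed. Levels are CPM computed here on the spliced reads of a sample. Tests were edgeR 4.0.16 (R 4.3.3; TMM, filterByExpr with a minimum count of 10, quasi-likelihood), with the number of sets of counts as a term where striatal samples entered, Benjamini-Hochberg adjustment over all genes tested and a threshold of 0.05. Usage was tested with diffSpliceDGE. Intervals of log2 fold changes are nominally at 95% and cover the spread between samples. They were built from a normal distribution and an SE derived from the F statistic. They are therefore approximate and narrower than the test itself implies. Single values were compared by two-sided exact permutation tests (70 arrangements, or 36 within numbers of sets). The scripts were tested on simulated data first. Alternatives included DESeq2 1.42.0, other normalization and filters, other read classes, a replicate block and each sample left out in turn. Exons came from GENCODE M21, whereas the authors built their TALON database from an Ensembl annotation. Of the 37726 known isoforms listed, 37568 were in GENCODE M21. Python 3.11.15, numpy 2.4.6, pandas 2.3.3, scipy 1.17.1, matplotlib 3.10.9 and limma 3.58.1 were also used.

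The members and lists were chosen with earlier results of these data known. Named were all 10 members, the isoform with the most complete reads of each, and the 3 genes most like each of the 3 members with the most reads. Other isoforms were named after their values were seen. For the list of target genes, 1 result between regions is not reported here.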

Additional observations from a re-analysis of the deposited data

Results flagged for a closer look

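In groups of 4, a sample far from the other 3 was sought in the members' levels and in the share of their leading isoforms, and chance alone marks about 1 in 20 such groups. Rbfox1 in Striatum R6/2 3 stood at 120 CPM, above the other 3 R6/2 striata at 78.6 to 83.6 CPM. Without it the striatal log2 fold change of Rbfox1 was -1.08 (adjusted p = 0.00881, edgeR). The share of ENSMUST00000025117 among complete Celf4 reads was 21.6% in 1 NT cortex, where the group's lowest was 16.8%. The share of ENSMUST00000106278 among complete Rbfox3 reads was 42.3% in 1 R6/2 cortex, where the group's highest was 60.8%.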

How the results depend on the processing

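Counts of members called were within 1.5 times those reported under the alternatives run, except as follows. In the striatum, 2 members were called, 1 (Rbfox3) with ISM isoforms left out and 0 without the term for the number of sets of counts, and 0 to 2 when a sample was left out (1 without NT 3 or R6/2 1, 0 without R6/2 2 or R6/2 4). In the cortex, 0 to 1 were called (1 without NT 3). In genomic reads, leaving out a sample gave 0 to 1 in the cortex and 0 to 3 in the striatum, where 0 were called without the term for sets and 0 with the replicate block. For isoform usage, the gene-level F test called 3 members in the striatum and 1 between regions, and adding ISM isoforms called 1 between regions. The cause of these changes was not tested.

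Animals of the same number are not stated to be paired. Correlations of the deviations of same-numbered samples were -0.38 to 0.15 between striatal genotypes, -0.073 to 0.17 between cortical genotypes, and between regions -0.092 to 0.13 in NT and -0.028 to 0.27 in R6/2 mice (mean 0.15, against -0.049 for other numbers). Not every pair passed 0.1, so the samples were taken to share only a number, and a shared mouse between regions was not settled. With the replicate block, 2 members were called in the striatum (Rbfox1 -0.91, adjusted p = 0.0333; Rbfox3 -0.77, 0.0483; edgeR), 0 in the cortex, 3 between regions and 0 in the interaction, and 0 in each test of isoform usage. In genomic reads, the block gave 0 in the striatum.

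These log2 fold changes crossed 0. None was called as reported or where it crossed 0, but Celf2 was called with genomic reads added in the striatum (-0.88) and between regions (0.83). Celf2 in the cortex was 0.39 and -0.024 with genomic reads added. Rbfox1 in the cortex was -0.035, and 0.0070 with upper-quartile normalization, 0.0079 without the filter, 0.034 without ISM isoforms and 0.0092 with the replicate block. Rbfox2 in the striatum was -0.056, and 0.17 without ISM isoforms and 0.091 with the first set of counts only. Rbfox3 between regions was -0.31, and 0.020 without the term for sets. With a sample left out, cortical values ranged from -0.13 to 0.12 for Rbfox1, -0.0066 to 0.25 for Celf4, -0.51 to 0.21 for Elavl3, -0.070 to 0.18 for Mbnl2 and -0.41 to 0.20 for Ptbp2, and from -0.085 to 0.049 for Celf2 and -0.077 to 0.12 for Celf4 in genomic reads. Striatal values ranged from -0.42 to 0.10 for Celf2, -0.17 to 0.0037 for Celf4, -0.0092 to 0.24 for Elavl3, -0.11 to 0.36 for Ptbp2 and -0.22 to 0.15 for Rbfox2, and from -0.38 to 0.098 for Celf4 in genomic reads. Between regions they ranged from -0.13 to 0.60 for Celf2, -0.58 to 0.23 for Rbfox2 and -0.49 to 0.18 for Rbfox3. No alternative could be run for cassette exons of members, since none had 10 reads of each form. Depth limited Nova1 and Nova2 most, with 65 and 2 spliced reads.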
